A study of Rattus norvegicus with 6 samples.

Results

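The immediate early genes described here were the 10 genes Fos, Fosb, Fosl2, Jun, Junb, Egr1, Nr4a1, Atf3, Ier2 and Dusp1 of the rat pituitary gland, out of 33294 gene symbols in the counted annotation. They were found in the files by their symbols, and each symbol matched 1 gene in all 6 libraries. Each library came from the pituitary of 1 male Sprague-Dawley rat aged 11 weeks. The 3 rats of the nicotine group were offspring of dams that received nicotine tartrate (6 mg/kg/day) from an osmotic mini-pump under the skin, and the 3 control rats were offspring of dams whose pump held sterile saline. The pumps were 28-day models and birth followed 13 days after they were implanted, so the pumps were not spent at birth. All rats, controls included, were under isoflurane for blood collection and were killed with an overdose of pentobarbital before the glands were frozen. The dam of each rat, the hour of collection and the time from anaesthesia to freezing were not given in the sources used here. Whether the pumps stayed in place after birth was not given either. The comparison asks whether exposure to nicotine through the dam left a difference in pituitary gene expression in the adult. Exposure before birth and possible exposure during nursing cannot be told apart.

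Immediate early genes are transcribed within minutes of a stimulus from factors already present in the cell, and their RNAs are short-lived. In the pituitary they respond to hypothalamic releasing hormones, and Egr1 and Nr4a1 are known as activators of the genes for luteinizing hormone beta and proopiomelanocortin. The calcium, cyclic AMP and mitogen-activated protein kinase pathways act on them mainly through serum response factor, which binds the CArG box, and through CREB, which binds the cyclic AMP response element (CRE).

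The promoters of some members show these sites before an annotated start. Sequences were taken from RefSeq (build GRCr8), which gave a window of 250 bases before and 50 bases after the start for 7 of the 10 members (Fosb, Fosl2, Junb, Egr1, Nr4a1, Ier2 and Dusp1). The windows were searched on both strands for the CArG box, the CRE (TGACGTCA), its shorter core (TGACG), the AP-1 site (TGAGTCA or TGACTCA) and the TATA box (TATAAA). The last 150 bases before the start are shown for the members with a CArG box, a CRE or a pair of CRE cores there. Capitals mark CArG boxes, CREs and CRE cores, the cores as CGTCA where they lie on the other strand. The windows of Egr1, Ier2 and Dusp1 end at the first base of the annotated gene. That of Nr4a1 lies inside the span of the gene, before the start of a shorter transcript.
Egr1 chr18:26736928-26737077 (+ strand): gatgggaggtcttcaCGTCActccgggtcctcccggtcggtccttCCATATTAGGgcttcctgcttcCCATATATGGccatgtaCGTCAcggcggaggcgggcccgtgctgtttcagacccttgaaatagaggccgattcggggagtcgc
Nr4a1 chr7:134259988-134260137 (+ strand): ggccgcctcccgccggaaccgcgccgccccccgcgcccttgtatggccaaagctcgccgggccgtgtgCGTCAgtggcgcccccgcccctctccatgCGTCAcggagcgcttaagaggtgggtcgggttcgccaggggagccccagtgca
Ier2 chr19:40399223-40399372 (+ strand): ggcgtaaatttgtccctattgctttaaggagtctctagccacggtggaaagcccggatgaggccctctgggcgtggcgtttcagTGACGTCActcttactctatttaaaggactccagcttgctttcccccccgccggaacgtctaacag
Dusp1 chr10:17184703-17184852 (+ strand): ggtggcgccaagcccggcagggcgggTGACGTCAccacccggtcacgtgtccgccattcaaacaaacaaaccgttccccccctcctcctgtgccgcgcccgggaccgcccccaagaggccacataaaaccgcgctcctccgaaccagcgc

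A CArG box was present in 1 of the 7 windows, that of Egr1, where the pair began 105 and 83 bases before the start, and in 1.64% of 33469 windows of all genes. A full CRE was present in 2 of the 7, beginning 66 bases before the start of Ier2 and 124 bases before that of Dusp1, and in 1.83% of all windows. Each CRE also holds the core on both strands. The core was present in 5 of the 7 (Junb, Egr1, Nr4a1, Ier2 and Dusp1) and in 21.2% of all windows. The AP-1 site was found in 0 of the 7 and in 4.63% of all windows. The letters of the TATA box were found in 2 of the 7, Junb and Fosb, and in 14.2% of all windows. In Junb they began 49 bases before the start on the strand of the gene. In Fosb they lay on the other strand, 180 bases before the start. The window of Fosl2 held none of these motifs. A match describes the letters of the window and is no evidence that a factor bound there.

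Values are given as CPM, the counts of a gene scaled to a common library total that includes the TMM factor. The libraries held 28318383 to 85977002 counts, with control replicate 1 the shallowest and nicotine replicate 2 the deepest. All 10 members passed the filter on low counts that 17292 genes passed, and the lowest count of a member in a library was 58, for Atf3 in control replicate 1. Nicotine replicate 2 lay furthest from the other libraries over all genes, at a mean distance of 90.8 on the log2 scale against 72.0 to 80.7, so fold changes that moved most with it are also given without it. Summed markers of pituitary hormone cells, led by Gh1 and Pomc, made up 119270 to 183050 CPM in every library. The extraction text of the labels speaks of testes, and 8 markers of testis germ cells summed to 0.211 to 0.530 CPM with Ddx4 and Tnp2 at 0 throughout.

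None of the 10 immediate early genes was called different between the nicotine and control rats. The study's thresholds were used for a call (fold change above 1.5, adjusted p below 0.1). At these, the quasi-likelihood test of edgeR called 0 of 17292 genes (0%), and 1062 genes (6.14%) had an unadjusted p under 0.05. DESeq2 called 0 of the 10 members and 61 of 18001 genes (0.339%). Of the 10 members, 3 (Fosb, Junb and Atf3) had an unadjusted p under 0.05 in edgeR, each with the lower mean after nicotine. For 1 member, Fosb, the 3 nicotine rats and the 3 control rats did not overlap, and 11.3% of all genes tested were of that kind. The mean was lower after nicotine for 8 members and higher for 2, Jun and Egr1. The median log2 fold change of the members was -0.63 beside 0.007 over all genes tested. Leaving out control replicate 1 moved the members' median to -0.13, and leaving out nicotine replicate 2 moved it to -0.74. In a whole gland, fewer cells of a type and less RNA per cell cannot be told apart.

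**Figure D1:**
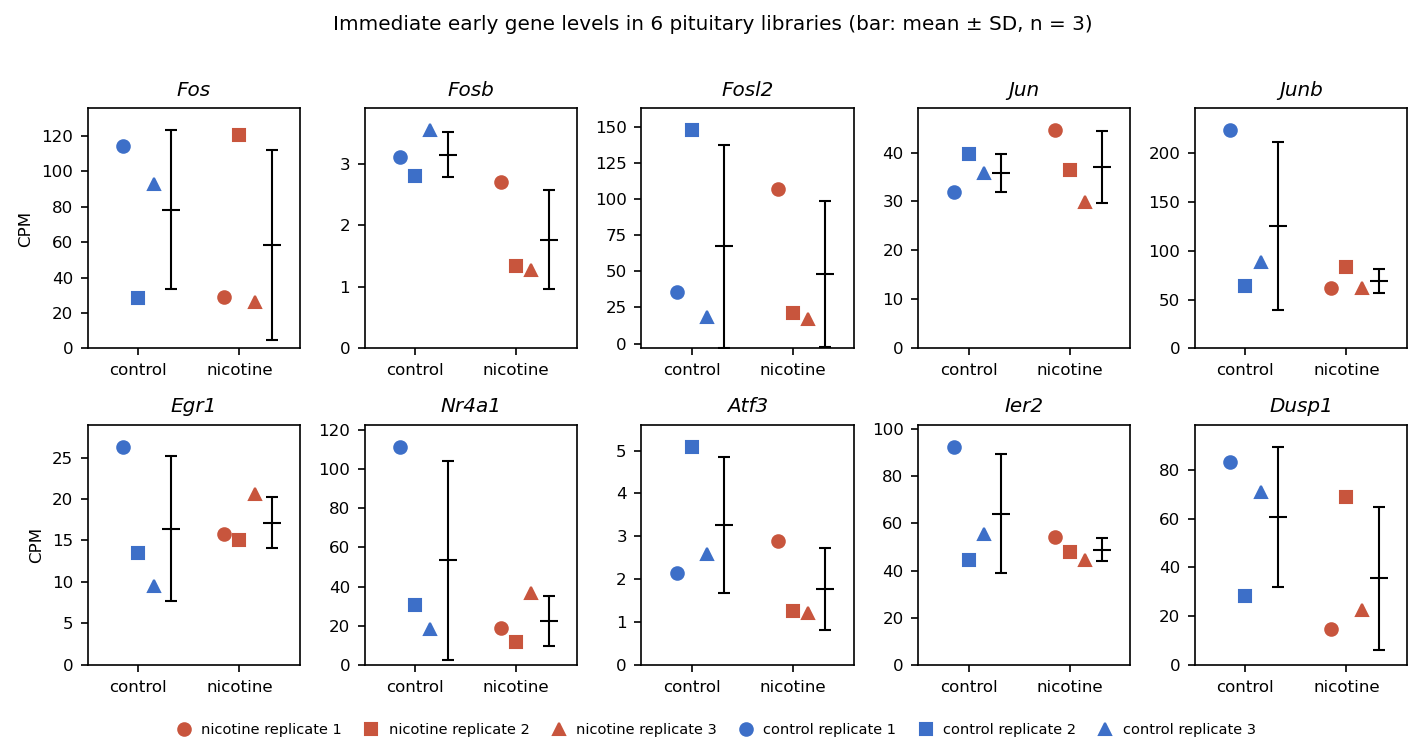
Level of each of the 10 genes in CPM (y axis, own scale for each gene) in the 3 control (blue) and 3 nicotine (red) libraries, with symbols for replicates 1, 2 and 3 and black bars for the mean ± SD (n = 3). Fosb is the gene whose groups do not overlap, and for Fosl2 the SD exceeds the mean in both groups.

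The Fos family proteins pair with Jun proteins to form the transcription factor AP-1. Fos, the member most used as a marker of recent cell activation, was at 29.0, 120 and 26.1 CPM in nicotine replicates 1, 2 and 3 and at 114, 28.2 and 92.7 CPM in control replicates 1, 2 and 3. Both groups thus held high and low rats, with nicotine replicate 2 beside control replicates 1 and 3. The nicotine mean was 58.5 ± 53.6 CPM (SD, n = 3) and the control mean 78.4 ± 44.8 CPM (SD, n = 3). In edgeR the log2 fold change of Fos, nicotine over control, was -0.42 with a standard error (SE) of 0.58 and an adjusted p of 0.899, and it came to -1.51 without nicotine replicate 2 and to -0.04 without control replicate 1.

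Fosb, a relative of Fos whose truncated form accumulates under repeated stimulation, was low in every library. It was at 2.69, 1.34 and 1.27 CPM in nicotine replicates 1, 2 and 3 and at 3.10, 2.80 and 3.54 CPM in control replicates 1, 2 and 3. Every nicotine rat lay below every control rat, but nicotine replicate 1, with 127 counts, lay close to control replicate 2, with 148 counts. The means were 1.77 ± 0.804 CPM (SD, n = 3) and 3.15 ± 0.372 CPM (SD, n = 3). Its log2 fold change was -0.86 (SE 0.33, adjusted p = 0.793 in edgeR), with an exact two-sided permutation p of 0.1, the smallest that 10 splits of 6 libraries can give. The groups overlapped when counts were thinned to the smallest library and when library totals were used without TMM factors. The truncated form is made from the same gene, and a count per gene does not separate the forms.

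Fosl2, which encodes the Fos-related protein Fra-2, had the largest spread within the groups among the members. It was at 107, 21.1 and 17.0 CPM in nicotine replicates 1, 2 and 3 and at 35.6, 148 and 18.5 CPM in control replicates 1, 2 and 3. A single rat in each group was high, nicotine replicate 1 and control replicate 2, and the highest library was 8.71 times the lowest. edgeR gave a log2 fold change of -0.49 (SE 0.76, adjusted p = 0.912). Leaving out nicotine replicate 1 gave -1.82 and leaving out control replicate 2 gave 0.84, so its sign rested on which of these rats was kept.

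Jun, the prototype partner of Fos, was the steadiest member. Its level was 44.5, 36.5 and 29.9 CPM in nicotine replicates 1, 2 and 3 and 32.0, 39.8 and 35.9 CPM in control replicates 1, 2 and 3. The groups overlapped over most of their range, and the highest library was 1.49 times the lowest. A log2 fold change of 0.04 (SE 0.18, adjusted p = 0.974 in edgeR) was obtained, and it lay between -0.11 and 0.17 when a library was left out.

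Junb, a Jun protein that often restrains Jun, was at 62.3, 83.6 and 61.6 CPM in nicotine replicates 1, 2 and 3 and at 224, 63.7 and 88.8 CPM in control replicates 1, 2 and 3. Control replicate 1 stood far above the other 5 libraries, and control replicate 2 lay among the nicotine rats. For Junb edgeR gave a log2 fold change of -0.86 (SE 0.38, adjusted p = 0.806), which was -0.14 without control replicate 1. Atf3, a stress-induced factor that can pair with Jun proteins, was at 2.89, 1.25 and 1.21 CPM in nicotine replicates 1, 2 and 3 and at 2.14, 5.09 and 2.59 CPM in control replicates 1, 2 and 3. Nicotine replicate 1 lay above 2 of the control rats, and control replicate 2 was the highest. For Atf3 the edgeR log2 fold change was -0.95 (SE 0.42, adjusted p = 0.806), with -0.45 when control replicate 2 was left out and -1.45 when nicotine replicate 1 was.

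Egr1 encodes a zinc finger factor that gonadotrophs use downstream of gonadotropin-releasing hormone. Its level was 15.8, 15.0 and 20.7 CPM in nicotine replicates 1, 2 and 3 and 26.3, 13.5 and 9.54 CPM in control replicates 1, 2 and 3. The nicotine rats all lay between the control rats, which spanned the whole range. The difference in edgeR was 0.07 on the log2 scale (SE 0.32, adjusted p = 0.973), 0.57 without control replicate 1 and -0.20 without control replicate 3.

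Nr4a1 encodes the orphan nuclear receptor Nur77, which corticotrophs use downstream of corticotropin-releasing hormone. It was at 18.6, 11.8 and 36.7 CPM in nicotine replicates 1, 2 and 3 and at 111, 30.6 and 18.2 CPM in control replicates 1, 2 and 3. The control group's mean, 53.4 ± 50.7 CPM (SD, n = 3) against a nicotine mean of 22.4 ± 12.9 CPM (SD, n = 3), was drawn up by control replicate 1, and the highest library was 9.48 times the lowest. This gave the most negative log2 fold change of the members, -1.25 (SE 0.58, adjusted p = 0.808 in edgeR). Leaving out control replicate 1 gave -0.13, and leaving out nicotine replicate 3 gave -1.81.

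Ier2 encodes a nuclear protein that is induced with Fos and Egr1 by growth factors. Its level was 54.1, 48.0 and 44.6 CPM in nicotine replicates 1, 2 and 3 and 92.5, 44.5 and 55.5 CPM in control replicates 1, 2 and 3. The nicotine rats lay close together, and control replicate 1 again was the highest. Its edgeR log2 fold change of -0.39 (SE 0.24, adjusted p = 0.827) was reduced to -0.03 without control replicate 1.

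Dusp1 encodes the dual-specificity phosphatase MKP-1, which switches off the mitogen-activated protein kinases that induce these genes. It was at 14.8, 69.0 and 22.6 CPM in nicotine replicates 1, 2 and 3 and at 83.2, 28.4 and 70.8 CPM in control replicates 1, 2 and 3. The high and low rats were those seen for Fos, with nicotine replicate 2 and control replicates 1 and 3 above the other 3 rats. On the log2 scale the groups differed by -0.77 (SE 0.51, adjusted p = 0.832 in edgeR). The difference was -1.70 without nicotine replicate 2, where the adjusted p was 0.377 in edgeR, the smallest of any member in any fit, and -0.40 without nicotine replicate 1.

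**Figure D2:**
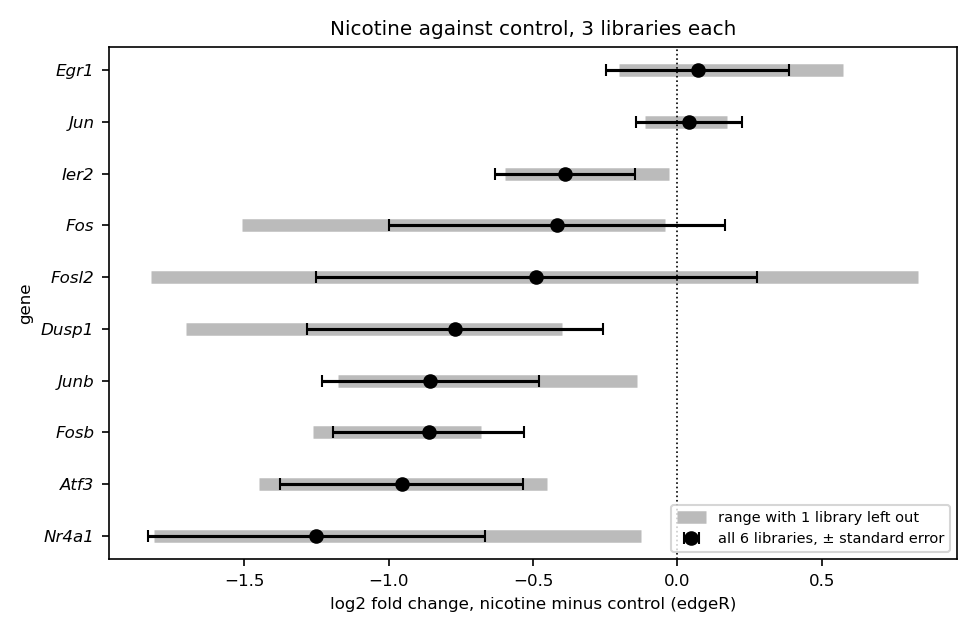
Log2 fold change of each gene, nicotine minus control (x axis), from edgeR with all 6 libraries (black point, bar ± standard error) and its range when 1 library is left out (grey). The ranges of Jun, Egr1 and Fosl2 cross 0, and those of Nr4a1, Junb, Ier2 and Fos end near 0 without control replicate 1.

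The spread between rats of a group was large for most of these genes. edgeR's biological coefficient of variation, the relative spread between rats beyond counting error, had a median of 35.1% over the 10 members and 20.8% over all genes tested. It lay above the trend fitted for genes of the same level in 8 of the 10 members and in 31.6% of all genes. Fosl2 was highest at 62.8%, with 99.5% of all genes below it. Fos at 49.2%, Nr4a1 at 48.7% and Dusp1 at 43.5% followed, where the trend was 18.5% to 18.8%. Junb was at 32.7%, Egr1 at 28.0% and Ier2 at 22.3%. Of the low members, Atf3 was at 37.5% against a trend of 30.1%, and Fosb was at 30.1% against 30.4%. Jun, at 17.8%, was the other member that did not exceed its trend of 18.8%.

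**Figure D3:**
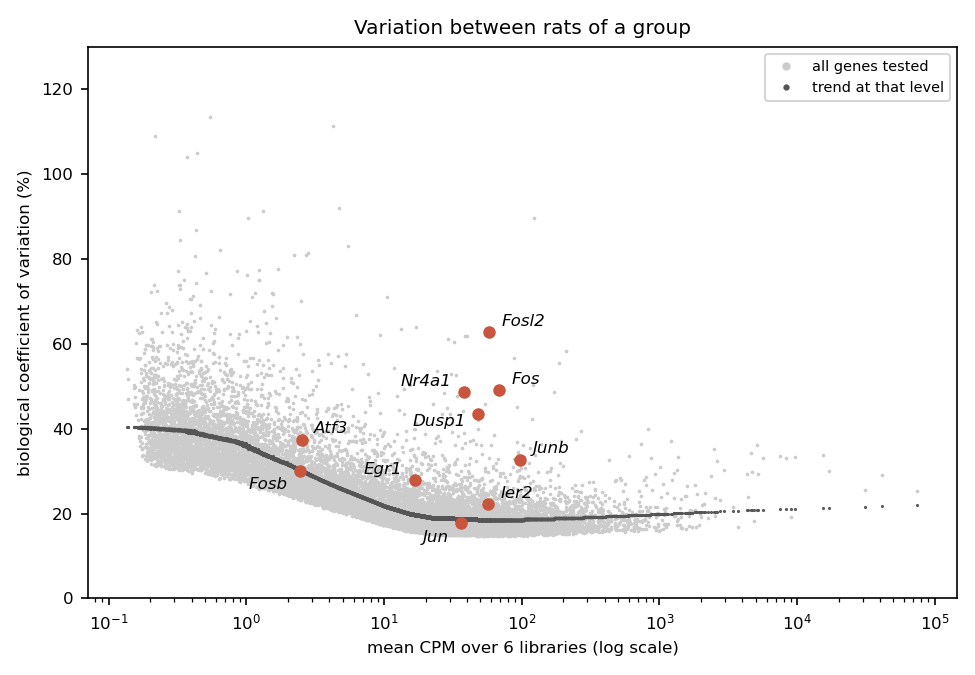
Biological coefficient of variation in percent (y axis) against mean CPM over 6 libraries (x axis, log scale) for 17292 genes (grey), the fitted trend (dark line) and the 10 immediate early genes (red). Fosl2, Fos, Nr4a1 and Dusp1 stand well above the trend, while Fosb and Jun lie on it.

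The members did not move as 1 block across the rats. The mean deviation of the 10 genes from their own means, on the log2 CPM scale, was -0.11, -0.21 and -0.51 in nicotine replicates 1, 2 and 3 and 0.70, 0.12 and 0.002 in control replicates 1, 2 and 3. All 3 nicotine values lay below all 3 control values, by a difference of means of -0.55, but nicotine replicate 1 and control replicate 3 were close. Without control replicate 1 the difference was -0.34. Control replicate 1 was the highest library for 5 members (Junb, Egr1, Nr4a1, Ier2 and Dusp1), and nicotine replicate 3 was the lowest for 6. Without Fosl2 and Atf3, a pair picked after seeing its values, the deviation of control replicate 2 was -0.23, inside the range of the nicotine libraries.

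**Figure D4:**
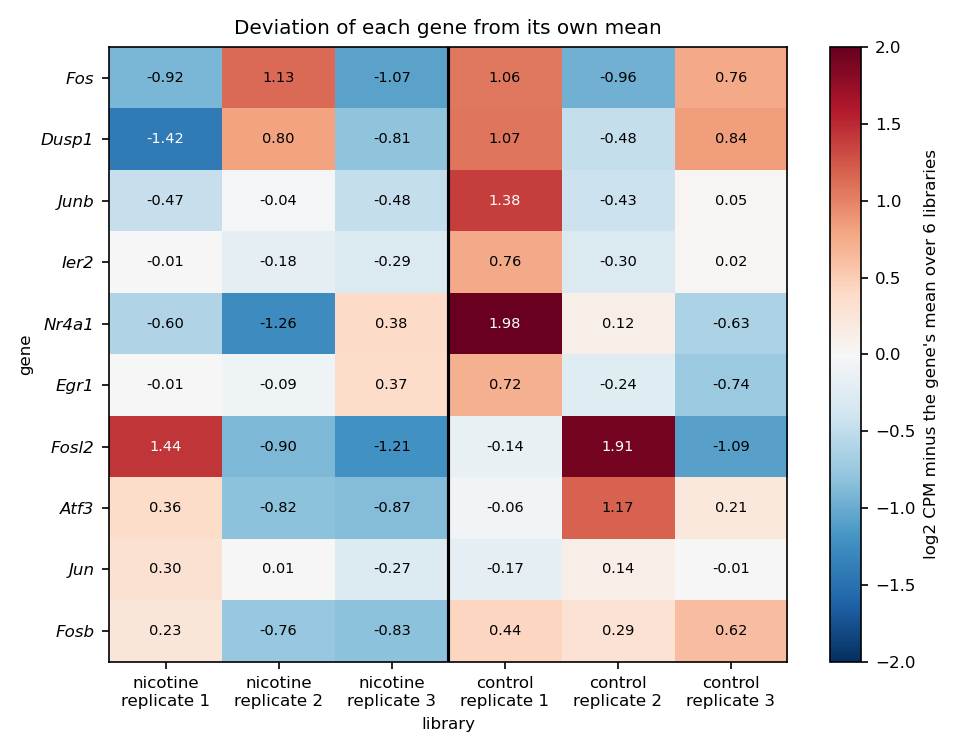
Deviation of each gene's log2 CPM from its mean over 6 libraries (colour and printed value), with genes as rows and libraries as columns, nicotine left of the black line and control right of it. Fos and Dusp1 are high in nicotine replicate 2 and control replicates 1 and 3, Junb, Ier2, Nr4a1 and Egr1 are highest in control replicate 1, and Fosl2, Atf3 and Jun are highest in nicotine replicate 1 and control replicate 2.

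Control replicate 1 was also the shallowest library, and its summed neutrophil markers were high. The 8 neutrophil markers, led by S100a9 and S100a8, with none at 0 in every library and 6 counted in all of them, summed to 23.9, 23.2 and 22.9 CPM in nicotine replicates 1, 2 and 3 and to 137, 7.94 and 100 CPM in control replicates 1, 2 and 3. The 9 macrophage markers, led by C1qa and C1qc, summed to 157 to 324 CPM in the nicotine group and 256 to 350 CPM in controls, with control replicate 1 the highest. Both cell types also express several of these genes, and the part of either in the members' levels was not tested. Of the 12 marker lists, 2 had summed levels that did not overlap between the groups, as the mean deviation of the members did not. The 8 markers of fibroblasts and meninges, led by Dcn and Col1a2, summed to 494, 330 and 603 CPM in nicotine replicates 1, 2 and 3 and to 659, 916 and 732 CPM in control replicates 1, 2 and 3. The sum of the 8 neuron and axon markers, led by Snap25 and Map2, went the other way, with 727, 805 and 632 CPM in the nicotine group and 575, 600 and 607 CPM in controls. Taken singly, Dcn did not overlap between the groups, while Col1a2, Snap25 and Map2 did. Other markers, picked after seeing their values, went against their sums in some rats. Dpt was higher in nicotine replicates 1 and 3 than in any control, and Nefl was lowest in nicotine replicate 3. No marker of these lists was at 0 in every library, and the part of these cells in the members' levels was not tested. With all libraries thinned to the total of control replicate 1, the median log2 fold change of the members was -0.62. Thinning leaves the expected CPM of a gene unchanged, so a value near that of the full counts was bound to follow. The part of depth in the members' levels was not tested.

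Other immediate early genes, of which 43 of a list of 45 were tested and Egr4 and Fosl1 were too low, were not called either. edgeR called 0 of the 43, 2 had an unadjusted p under 0.05 and both had the lower mean after nicotine, and the log2 fold change was negative for 28 and positive for 15 with a median of -0.19. Dusp2, a phosphatase of the same family as Dusp1, was low, at 0.694 to 2.43 CPM. Its log2 fold change was -0.97 (adjusted p = 0.803 in edgeR), or -0.60 without control replicate 3, and the groups overlapped. Socs3, an inhibitor of cytokine signalling, was at 14.0, 10.8 and 10.4 CPM in nicotine replicates 1, 2 and 3 and at 26.5, 17.0 and 12.1 CPM in control replicates 1, 2 and 3, with a log2 fold change of -0.66 (adjusted p = 0.806 in edgeR). Gadd45b, a stress sensor, had a log2 fold change of -0.56 (adjusted p = 0.808 in edgeR). Without control replicate 1 the values were -0.31 for Socs3 and -0.35 for Gadd45b. Control replicate 1 was the highest library for 12 of the 43 genes and for 20.2% of all genes tested.

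A set of genes shared the pattern of Fosl2. Nicotine replicate 1 and control replicate 2 were the highest 2 libraries for 3 of the 10 members (Fosl2, Atf3 and Jun), for 9 of the 43 other immediate early genes and for 6.57% of all genes tested. Genes with this pattern were picked after seeing their values. Crem, which encodes a cyclic AMP-responsive modulator and, from an internal promoter, its own repressor ICER, was at 468, 75.1 and 83.6 CPM in nicotine replicates 1, 2 and 3 and at 104, 311 and 82.7 CPM in control replicates 1, 2 and 3. Both high rats were well apart from the other 4, and for Crem as for Fosl2 the lower of the pair was close to 3 times the next library. The count per gene does not separate ICER from the longer forms of Crem.

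Gaps smaller than these, with the same pair on top, were seen for further genes of the list. Maff, a small Maf factor, was at 16.9 and 10.6 CPM in the pair and at 4.58 to 6.87 CPM in the other 4 rats. Homer1, a scaffold protein gene with an activity-induced short form, was at 40.9 and 17.7 CPM against 8.03 to 12.4 CPM. Phlda1 was at 31.1 and 19.2 CPM against 11.6 to 14.8 CPM. In these 3 genes nicotine replicate 1 was the higher of the pair. Nr4a3, a relative of Nr4a1, was at 9.04 and 17.1 CPM in the pair, but control replicate 1 was close at 8.86 CPM. The pair also led for 2 genes of the acute glucocorticoid response, Zbtb16 at 23.1 and 12.3 CPM against 5.95 to 7.96 CPM, and the clock gene Per1 at 25.8 and 51.1 CPM against 10.4 to 21.6 CPM. As the pair holds 1 rat of each group, the exposure does not separate it from the other rats.

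**Figure D5:**
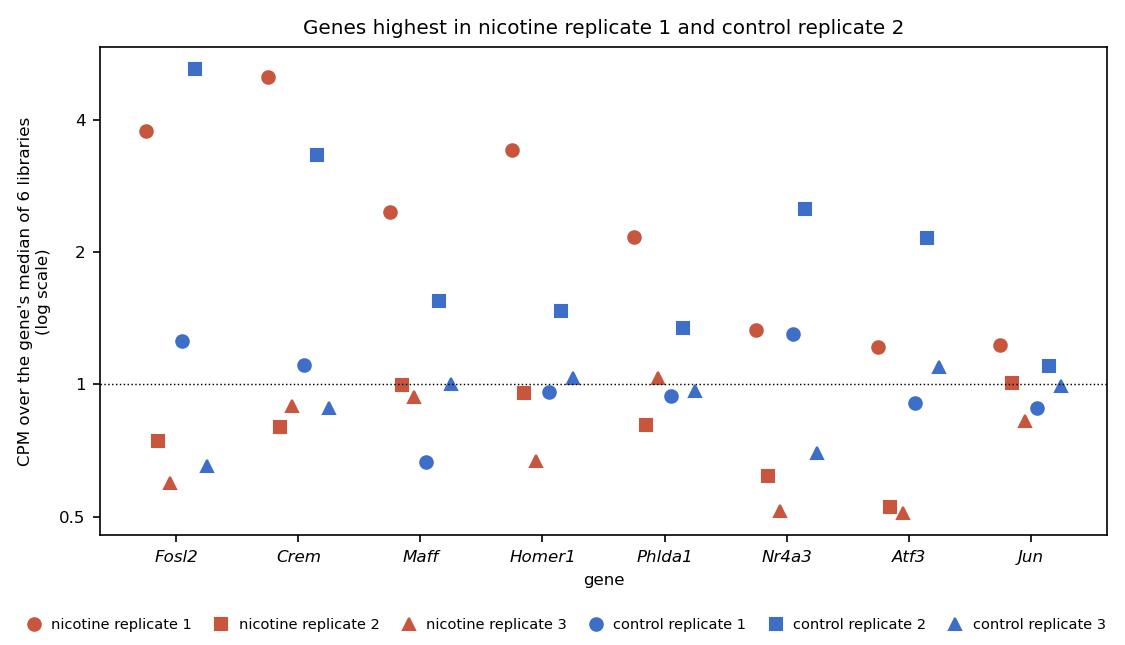
CPM of 8 genes divided by the gene's median over 6 libraries (y axis, log scale), with a symbol for each library, nicotine in red and control in blue. Nicotine replicate 1 (red circle) and control replicate 2 (blue square) are the highest for each gene, with wide gaps for Fosl2 and Crem and narrow gaps for Nr4a3, Atf3 and Jun.

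Fos and Dusp1 followed another division, with nicotine replicate 2 and control replicates 1 and 3 on top. This trio was on top for 3 of the 10 members (Fos, Dusp1 and Junb), for 5 of the 43 other immediate early genes and for 7.12% of all genes tested. Bhlhe40, a clock repressor, was at 8.04, 36.9 and 12.8 CPM in nicotine replicates 1, 2 and 3 and at 16.1, 11.1 and 14.3 CPM in control replicates 1, 2 and 3. Sik1, a kinase that restrains CREB coactivators, did not follow this trio, with nicotine replicate 2 at 2.03 CPM. It was at 8.16 CPM in control replicate 1 and at 1.97 to 3.57 CPM in the other 5 libraries. Bhlhe40 and Sik1 were picked after seeing their values.

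Genes that act before and beside the immediate early genes were not called. Of 28 upstream kinases and factors, 0 were called and 2 had an unadjusted p under 0.05, both with the higher mean after nicotine, and the median log2 fold change was 0.09. For 4 of the 28 every nicotine rat lay above every control rat, and for 1 below. Over all genes tested, 11.3% did not overlap in either direction. Mrtfb, a coactivator of serum response factor, was at 13.0, 18.7 and 12.3 CPM in nicotine replicates 1, 2 and 3 and at 8.57, 11.2 and 10.4 CPM in control replicates 1, 2 and 3, so the groups did not overlap (log2 fold change 0.54, adjusted p = 0.806 in edgeR). Its relative Mrtfa had a log2 fold change of 0.49 and the kinase gene Rps6ka1 of 0.57, both with overlapping groups. Without nicotine replicate 2 the values were 0.31 for Mrtfb and 0.26 for Mrtfa. Of 13 partners and corepressors tested, 0 were called and the median log2 fold change was -0.01. Batf3, a small partner of Jun proteins, was at 6.26, 4.46 and 7.06 CPM in nicotine replicates 1, 2 and 3 and at 7.61, 8.80 and 10.9 CPM in control replicates 1, 2 and 3, again without overlap (log2 fold change -0.63, adjusted p = 0.793 in edgeR). Its log2 fold change was -0.46 without nicotine replicate 2. The log2 fold changes of Atf7 and Batf were 0.35 and -0.64, with 0.22 for Atf7 without control replicate 1 and -0.29 for Batf without control replicate 2. Batf was very low, at 0.198 to 0.624 CPM, and the SE of its log2 fold change was 0.51.

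Among 12 genes known as targets of these factors, 10 were tested and Cyp11a1 and Mmp3 were too low. Of the 10, 0 were called and 2 had an unadjusted p under 0.05. The mean was higher after nicotine for 7 and lower for 3, and the median log2 fold change was 0.28. Lhb, the luteinizing hormone beta gene that Egr1 activates, was at 216, 820 and 223 CPM in nicotine replicates 1, 2 and 3 and at 154, 75.6 and 125 CPM in control replicates 1, 2 and 3. Every nicotine rat lay above every control rat, and nicotine replicate 2, the library that stood apart, was far above the rest. The log2 fold change of Lhb was 1.83 (SE 0.48, adjusted p = 0.760 in edgeR), and it was 0.89 without nicotine replicate 2. Gnrhr, the receptor for gonadotropin-releasing hormone, was at 34.2, 106 and 34.6 CPM in nicotine replicates 1, 2 and 3 and at 30.1, 25.3 and 21.0 CPM in control replicates 1, 2 and 3, with a log2 fold change of 1.20 that was 0.43 without nicotine replicate 2. Egr1 itself was at 15.0 CPM in nicotine replicate 2, within the range of the other rats. Timp1, an inhibitor of metalloproteinases, had a log2 fold change of 0.48, and of 0.11 without nicotine replicate 3. Pomc, the proopiomelanocortin gene that Nr4a1 activates, went the other way and was picked after seeing its values. Nicotine replicates 1, 2 and 3 were at 27330, 20412 and 46403 CPM. Control replicates 1, 2 and 3 were at 45091, 36103 and 71827 CPM. The log2 fold change of Pomc was -0.70 (SE 0.69, adjusted p = 0.854 in edgeR), and the groups overlapped.

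For comparison, 3 lists of genes that respond to handling of the animal or tissue were examined. Of 13 heat shock genes tested, 0 were called and 12 had the higher mean after nicotine, with a median log2 fold change of 0.17. Hspb1, a small heat shock protein gene, was at 16.6, 25.9 and 21.1 CPM in nicotine replicates 1, 2 and 3 and at 12.0, 15.1 and 10.5 CPM in control replicates 1, 2 and 3 (log2 fold change 0.75, adjusted p = 0.760 in edgeR). The groups did not overlap for Hspb1 or for Hsf1, the heat shock factor, at a log2 fold change of 0.51, and the value for Bag3 was 0.41, or 0.27 without control replicate 1. Of 13 hypoxia genes tested, 0 were called and the median log2 fold change was -0.06, with values of -0.59 for Bnip3, 0.39 for Adm and -0.23 for P4ha1. Of 11 genes of the acute glucocorticoid response, 0 were called and the median log2 fold change was -0.02, with values of 0.50 for Fkbp5, -0.29 for Tsc22d3 and -0.70 for Per1. The groups did not overlap for Fkbp5 or P4ha1 either, and 11.3% of all genes tested were of that kind. Without nicotine replicate 2 the values were 0.57 for Hspb1, -0.37 for Bnip3, 0.17 for Adm, -0.28 for P4ha1 and 0.25 for Fkbp5. Without control replicate 2 that of Per1 was 0.0004. DESeq2 called 0 genes of any of these lists. The lists stand beside the members as values, and the part of handling in the members' levels was not tested.

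Outside the members, the genes whose log2 CPM was most like the mean deviation of the 10 members over the 6 libraries were Armt1, LOC102548389 and Cyrib, among 11497 genes with a mean of at least 5 CPM. Pearson's r was 0.996 for Armt1, 0.980 for LOC102548389 and 0.973 for Cyrib, and Spearman's rho was 1, 0.943 and 0.829. These are the highest of many correlations over 6 libraries that share the depth and composition of those libraries, and they are a description. Armt1 itself ranged from 16.9 CPM in nicotine replicate 3 to 23.8 CPM in control replicate 1, a much narrower range than most members had.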

How the data were processed

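Pituitary RNA of 3 nicotine and 3 control rats was sequenced as stranded paired-end libraries. Per the paper's methods and the submitters' processing notes (bcl2fastq 2.20.0.422, HISAT2 2.1.0), the authors mapped reads to rn7 and used FeatureCounts with UCSC's ncbiRefSeq gene models. The deposited values are whole-number counts per gene symbol, used as deposited. Whether reads or pairs were counted, the strand setting and the treatment of reads with several positions are not given in the sources used here, so overlapping and antisense genes may share counts. The labels do not tell whether rats came from separate litters. The p-values set the group difference against the spread between rats, and they may be too small if rats of a group shared a dam.

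The 10 members and the gene lists were chosen with earlier results of these data known. In R 4.3.3, edgeR 4.0.16 (filterByExpr, TMM, quasi-likelihood test without covariates, Benjamini-Hochberg adjustment over 17292 genes) compared the groups. limma 3.58.1 and DESeq2 1.42.0 served as alternatives, with DESeq2 the study's tool and the thresholds those of the study. Log2 CPM used a prior count of 2. All members were named, with the 3 genes of smallest p in each list, the 2 most abundant markers of a list and the 3 genes most alike. Any other gene is said to be chosen after its values were seen. CPM values were not corrected for transcript length, so levels of different genes compare only roughly. The fit was tested on simulated counts. Libraries held 28318383 to 85977002 counts. Alternatives were DESeq2, RLE factors, library totals alone, no filter, a minimum of 10 counts throughout, voom with quality weights, thinned counts, a block for the replicate number, and the omission of single libraries.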

Additional observations from a re-analysis of the deposited data

How the results depend on the processing

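None of the 10 members was called under any alternative, and of 140 alternative values for single members 133 kept the sign. The value of Jun was -0.036 with limma voom. With 1 library left out, the log2 fold change ranged from -0.11 to 0.17 for Jun, from -0.20 to 0.57 for Egr1 and from -1.82 to 0.84 for Fosl2. Over all genes the count of called genes was 61 with DESeq2, 1 with library totals alone, 2 without a filter, 1 with voom, 1 with thinned counts, 2 with the replicate block, and 0 to 9 with 1 library left out. Members with an unadjusted p under 0.05 numbered 1 with thinned counts (5.96% of all genes tested) and 1 with the replicate block (5.21%). With 1 library left out they ranged from 1 without nicotine replicate 3 (7.13% of all genes) to 5 without control replicate 2 (4.97%). Over these fits the share of all genes was 3.82% to 9.07%. Correlations of same-numbered deviations between the groups were 0.03, -0.20 and -0.08. Differently numbered rats were not correlated beside them, so these values cannot tell whether the numbers paired the rats. Members whose groups did not overlap numbered 0 with library totals alone (11.7% of all genes) and 0 with thinned counts (11.1%). With 1 library left out they numbered 1 to 4, where 17.1% to 25.6% of all genes did not overlap. For the 3 genes of smallest p in each list, values without single libraries were added after seeing the data, and 1 of them changed sign, Per1, which ranged from -1.04 to 0.0004 (without control replicate 2). The median log2 fold change of the members was between -0.74 and -0.13 with 1 library left out, the last without control replicate 1. Library totals alone moved the median of all genes to 0.06. What causes these shifts was not tested. Precision is limited by 3 rats a group, and a difference that was not called is not shown to be absent.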
